A study of Mus musculus with 6 samples.

Results

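The acute phase response is the change in plasma protein synthesis that the liver makes during inflammation, injury and many cancers. Interleukin 6 and interleukin 1 act on hepatocytes through STAT3, C/EBP factors and NF-kB, and raise the transcription of genes for serum amyloid A, orosomucoids, haptoglobin, the fibrinogen chains and lipocalin 2. Hepatocytes make most of these plasma proteins, and blood levels of several of them serve as clinical markers of inflammation. Described here are 10 such genes, each with 1 probe, out of 20868 non-control probes on the arrays: the serum amyloid A genes Saa1, Saa2 and Saa3, the orosomucoid genes Orm1 and Orm2, the haptoglobin gene Hp, the fibrinogen chain genes Fga, Fgb and Fgg, and Lcn2. Probes of 7 of them (Saa1, Saa2, Saa3, Orm1, Orm2, Hp and Fgg) were found by the symbol or accession in the scanner files. The probes of Fga, Fgb and Lcn2 carry no symbol, and these 3 were named from the protein name spelled out in the probe description.

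The RNA came from mice of the background strain C3H/HeNCrlBR(C3He) at 39 weeks of age, all of which had been given the liver carcinogen diethylnitrosamine (DEN) to start tumours. The RNAs were WT tumour after DEN and then phenobarbital (PB, a tumour promoter that activates CAR) in the drinking water, liver of mice lacking the nuclear receptor CAR (CAR-KO, gene Nr1i3) after DEN and PB, WT liver after DEN and PB, and CAR-KO liver after DEN alone. They were compared on 6 Agilent 2-colour arrays as 3 dye-swapped pairs of 2 arrays: CAR-KO over WT liver (both DEN and PB), PB over DEN alone in CAR-KO liver, and WT tumour over CAR-KO liver (both DEN and PB). The labels give neither the number of mice nor whether the 2 arrays of a pair carried the same RNA extracts, so the errors below measure the spread between arrays, which may be technical. All 3 comparisons share the CAR-KO liver given DEN and PB. The tumour was set against liver of the other genotype, so tumour and CAR cannot be told apart in that pair, and in bulk RNA fewer cells of a type and less RNA per cell cannot be told apart.

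Median Cy3 signals were 186.5 to 493.5, and median Cy5 signals 129.4 to 417.9. Array 2 of the tumour pair stood apart, with a median local background of 288 in Cy3 and 299 in Cy5, against 53 to 61 in Cy3 and 60 to 62 in Cy5 on the other arrays, and its file came from another version of the Agilent Feature Extraction software. Ratios of single arrays, here and below, are turned to the named direction but still hold each probe's dye effect (its mean log2 ratio of red over green). That effect enters the 2 arrays of a pair with opposite sign and can lower their correlation. Across all probes tested, the turned log2 ratios of paired arrays correlated at r = 0.0294 for CAR-KO over WT liver. The r was -0.347 for PB over DEN alone and 0.391 for the tumour pair, and the part of the dye in it was not tested. The probe of Nr1i3 averaged a log2 ratio of -0.79 ± 0.16 (SE) in CAR-KO over WT liver (limma adjusted p = 0.414) and 1.81 ± 0.16 for WT tumour over CAR-KO liver (limma adjusted p = 0.00197), and the files do not say whether it lies in the deleted part of the gene. Alb has no probe named by symbol here. The hepatocyte markers that were measured, 4 of the 8 listed, were well above background in every channel of tumour and liver.

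To show the sequences that these genes carry in front of their start sites, the 250 bases upstream are given for the 6 genes whose RNA passed the test in the tumour comparison below (RefSeq, mouse build GRCm38.p6). Promoters of 8 of the 10 genes were in the table, and those of Orm1 and Hp were not. Each line runs 5′ to 3′ on the gene's own strand and ends at the base before the start of the transcript in the table. In Saa1, Saa2, Orm2 and Lcn2 the capitals mark matches on either strand to the C/EBP motif TTNNGNAA. In Fgb and Fgg they mark the core CTGGGA of the interleukin 6 response element, also on either strand. The regions are chr7:46742981-46743230 (minus strand) for Saa1, chr7:46751583-46751832 (plus strand) for Saa2, chr4:63362199-63362448 (plus strand) for Orm2, chr3:83049864-83050113 (minus strand) for Fgb, chr3:83007474-83007723 (plus strand) for Fgg and chr2:32387740-32387989 (minus strand) for Lcn2.
Saa1: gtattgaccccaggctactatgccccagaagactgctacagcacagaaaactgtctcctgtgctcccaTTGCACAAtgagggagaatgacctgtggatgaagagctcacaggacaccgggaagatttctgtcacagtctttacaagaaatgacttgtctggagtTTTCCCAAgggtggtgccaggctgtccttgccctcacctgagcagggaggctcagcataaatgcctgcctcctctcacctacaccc
Saa2: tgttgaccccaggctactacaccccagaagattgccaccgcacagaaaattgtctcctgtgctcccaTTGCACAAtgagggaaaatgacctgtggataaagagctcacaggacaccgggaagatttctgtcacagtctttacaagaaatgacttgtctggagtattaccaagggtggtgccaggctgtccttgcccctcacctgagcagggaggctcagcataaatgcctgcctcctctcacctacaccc
Orm2: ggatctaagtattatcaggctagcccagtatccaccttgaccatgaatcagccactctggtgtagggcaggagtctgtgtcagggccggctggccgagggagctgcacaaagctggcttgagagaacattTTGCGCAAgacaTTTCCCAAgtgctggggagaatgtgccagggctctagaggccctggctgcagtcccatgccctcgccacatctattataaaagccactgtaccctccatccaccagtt
Fgb: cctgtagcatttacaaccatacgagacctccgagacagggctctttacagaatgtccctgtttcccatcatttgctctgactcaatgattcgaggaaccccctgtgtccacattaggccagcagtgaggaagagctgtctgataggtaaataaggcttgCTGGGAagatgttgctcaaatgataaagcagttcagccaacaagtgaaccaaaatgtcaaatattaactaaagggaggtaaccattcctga
Fgg: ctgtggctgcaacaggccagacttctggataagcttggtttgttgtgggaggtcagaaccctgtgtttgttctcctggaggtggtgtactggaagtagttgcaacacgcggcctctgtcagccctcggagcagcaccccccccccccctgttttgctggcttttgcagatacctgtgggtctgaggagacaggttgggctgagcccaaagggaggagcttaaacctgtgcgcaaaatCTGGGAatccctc
Lcn2: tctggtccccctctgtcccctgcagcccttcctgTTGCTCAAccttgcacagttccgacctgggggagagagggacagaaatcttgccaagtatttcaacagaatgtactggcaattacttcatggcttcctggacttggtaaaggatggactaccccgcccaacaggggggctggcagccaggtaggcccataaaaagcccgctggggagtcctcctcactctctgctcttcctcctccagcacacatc

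Saa1 and Saa2 are adjacent on chromosome 7, and their upstream sequences were identical at 238 of 251 alignment columns (94.8%). Saa3, farther along the same chromosome with Saa4 among the genes between, matched Saa1 at 52.2% of columns. The fibrinogen genes also lie together, on chromosome 3, but their upstream sequences matched each other at only 47.7% to 49.7%. A match to TTNNGNAA stood in 7 of the 8 upstream sequences, all but that of Fgg, against 36.8% of all 32851 promoters of the same length. The core CTGGGA stood in 3 of 8, those of Fga, Fgb and Fgg, against 27.0% of all promoters. The STAT3 motif TTCNNNGAA stood in 2 of 8 (Fga and Fgb, against 7.02%) and GTTAAT, part of the HNF1 motif, in the same pair (against 6.43%). The TATA motif TATAAA stood in Orm2 alone (1 of 8, against 12.4%). For NF-kB only 1 pattern of 10 bases was searched, on both strands, and no match to it stood in these 8 windows (against 4.11%). Other forms of the NF-kB motif were not searched, so this count does not show that the windows lack such a sequence. None of the matches overlapped one another, and a match is a description of letters, not a site.

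All 10 probes were well above background in all 12 channel readings, 120 readings in all. Only Fgb was ever saturated, in 2 readings, both of CAR-KO liver with PB in Cy5, on array 1 of the PB pair and array 2 of the tumour pair. The levels below are log2 signals after loess and quantile normalisation of average intensity. They can be compared between RNAs for 1 probe but not between probes. Each reading still holds the dye effect of its probe and differences between arrays, so overlap or its absence over all arrays is a description only. The plot of signals by RNA shows every reading.

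**Figure D1:**
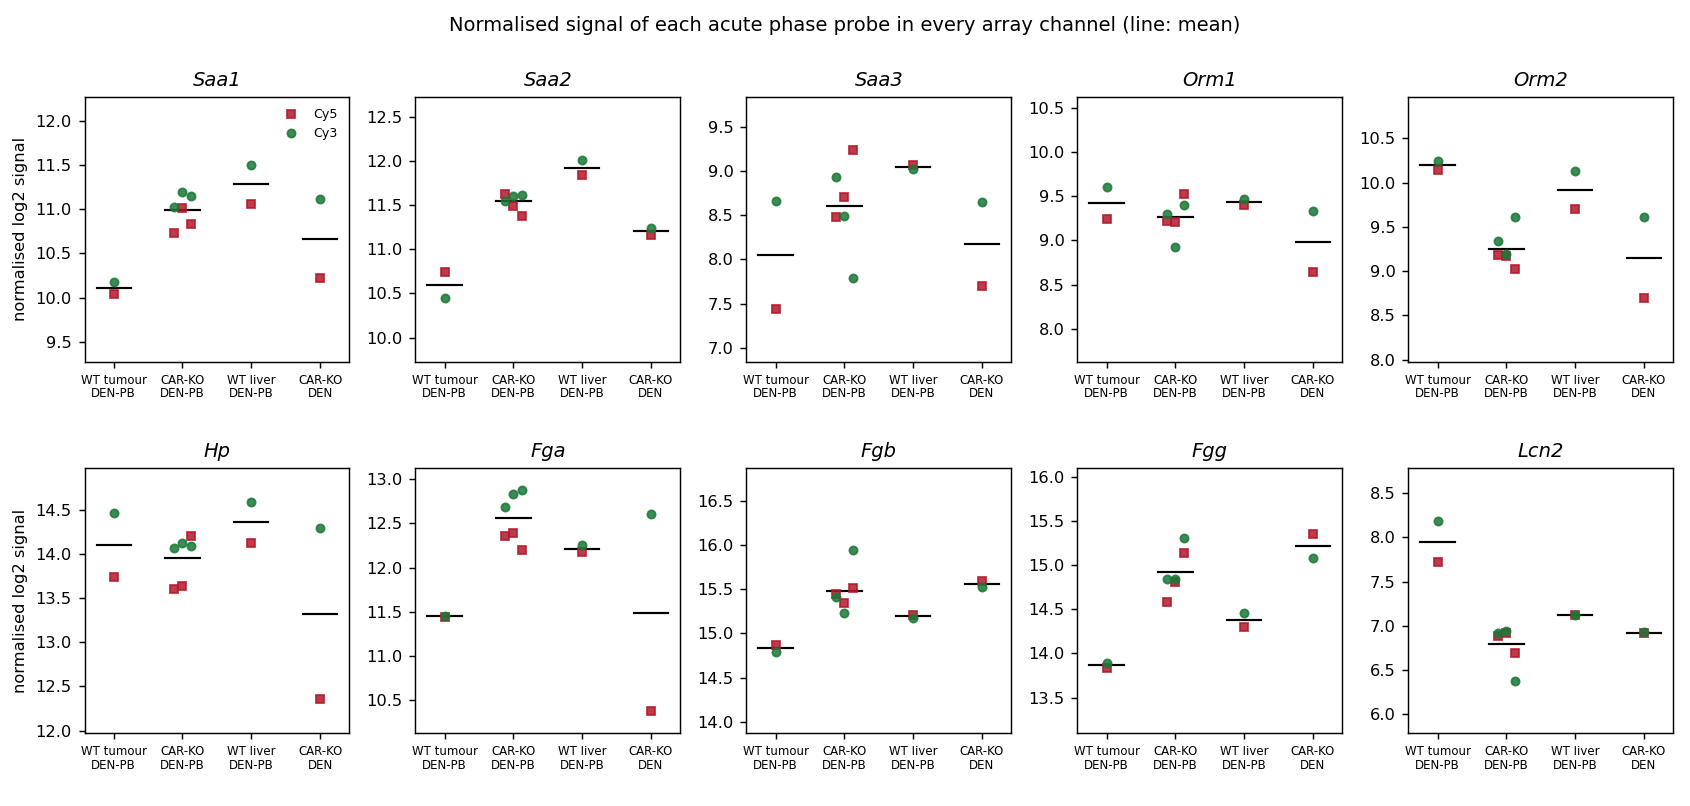
Normalised log2 signal (vertical axis) of each acute phase probe in every array channel, by RNA: WT tumour, CAR-KO liver with DEN and PB, WT liver with DEN and PB, and CAR-KO liver with DEN alone. Points are readings (Cy5 squares, Cy3 circles), lines are means, and the vertical scales differ between genes. Lcn2 in WT tumour read 7.72 and 8.18, above all 6 readings of CAR-KO liver with PB, and Fgg in WT tumour read 13.84 and 13.90, below all 6.

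The tumour comparison held all of the calls. In WT tumour over CAR-KO liver, 2 of the 10 genes rose (Lcn2 and Orm2), against 2.53% of all probes called higher, and 4 fell (Saa1, Saa2, Fgb and Fgg), against 0.839% called lower (limma, 20744 probes tested, Benjamini-Hochberg adjusted p under 0.05). Of the 7 genes found by symbol or accession, 1 rose and 3 fell. The median log2 ratio was -0.67 over the 10 genes and -0.01 over all probes, and 8 of the 10 genes reached an unadjusted p under 0.05, as did 4858 of all probes (23.4%). The calls of Lcn2 and Fgg held in 14 of 17 tested alternatives, and those of the others in 5 to 7, while all 6 kept their sign in each. Lcn2 and Fgg alone were called when any 1 of the 4 arrays of the other pairs was left out, and no gene was called on the processed signals of the scanner software, with scale normalisation between arrays or with the 2 arrays of the pair alone. With median centring of the arrays in place of loess, 57.1% of the called probes were on the higher side, against 75.1% here.

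**Figure D2:**
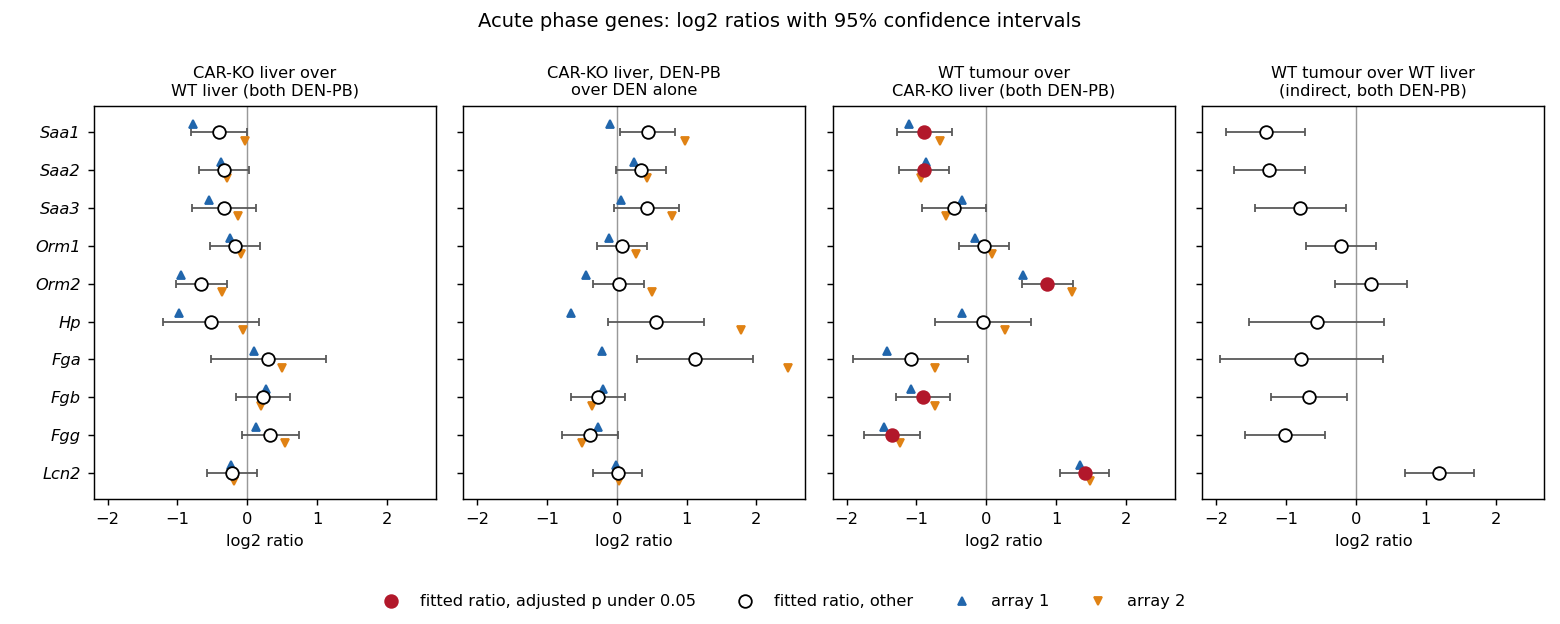
Fitted log2 ratios (horizontal axis, large circles) of the acute phase genes with 95% confidence intervals in 4 comparisons. Triangles are the turned ratios of single arrays, with the dye effect of the probe still in them. Filled circles mark an adjusted p under 0.05, which only the tumour over CAR-KO liver panel holds: Lcn2 (1.41) and Orm2 (0.88) lie to the right of 0, and Saa1 (-0.89), Saa2 (-0.90), Fgb (-0.90) and Fgg (-1.35) to the left.

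Saa1 and Saa2 encode the major serum amyloid A proteins, apolipoproteins that replace others on high-density lipoprotein during the acute phase. Saa1 read 10.04 and 10.17 in WT tumour, against 10.73 to 11.20 (median 11.02, 6 readings) in CAR-KO liver with PB, so the groups did not overlap. Its log2 ratio was -0.89 ± 0.17 (SE; -1.11 and -0.67 on arrays 1 and 2), or 1.85-fold lower (limma adjusted p = 0.0386). The array values still hold the dye effect of its probe, -0.37, while the fits that follow, with 1 array left out, take it off. Without array 2, the array with the high background, Saa1 was at -0.66 (limma adjusted p = 0.0546), and without array 1 at -1.12 (limma adjusted p = 0.0157).

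Saa2 read 10.75 and 10.45 in WT tumour, against 11.38 to 11.62 (median 11.57) in CAR-KO liver with PB, again with no overlap. Its log2 ratio of -0.90 ± 0.15 (-0.87 and -0.93 on the 2 arrays; limma adjusted p = 0.0248) was 1.87-fold lower, and stayed past the threshold without array 2 (-0.80, limma adjusted p = 0.0221) and without array 1 (-0.999, limma adjusted p = 0.0257). The array ratios of Saa2 lay closer together than those of Saa1, and the dye effect of the Saa2 probe was -0.03. The 2 messengers are near copies, their symbols are each other's older synonyms in the RefSeq table, and the probe sequences were not used here, so how much each probe reads of the other RNA was not tested. Over the 3 fitted ratios Saa1 and Saa2 were the closest pair among the 10 genes, at a Euclidean distance of 0.121. Median centring in place of loess left Saa1 at -0.28 and Saa2 at -0.26, neither of them past the threshold.

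Saa3 encodes the serum amyloid A protein that macrophages and adipocytes make as well as hepatocytes. It read 7.44 and 8.66 in WT tumour, against 7.79 to 9.24 (median 8.60) in CAR-KO liver with PB, and these ranges over all arrays overlapped. Both ends of the liver range came from the tumour arrays. Within each of these arrays tumour read below liver, 7.44 against 7.79 on array 1 and 8.66 against 9.24 on array 2. Its log2 ratio of -0.46 ± 0.20 (-0.34 and -0.58; limma adjusted p = 0.213) did not pass the test. Saa4, the constitutive serum amyloid A gene of the same cluster, had a ratio of -0.52 ± 0.16 (limma adjusted p = 0.126).

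Orm1 and Orm2 encode orosomucoids, or alpha-1-acid glycoproteins, plasma carriers of drugs and steroids. Orm2 read 10.14 and 10.25 in WT tumour, against 9.03 to 9.61 (median 9.19) in CAR-KO liver with PB, and the groups did not overlap. Its log2 ratio was 0.88 ± 0.16 (0.53 and 1.22; limma adjusted p = 0.0299), or 1.83-fold higher. The dye effect of the Orm2 probe, -0.37, is still in the 2 array values. Array 2 gave the larger ratio, and the call was lost without array 1 (0.84, limma adjusted p = 0.0704) and kept without array 2 (0.91, limma adjusted p = 0.014).

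Orm1 read 9.24 and 9.60 in WT tumour, against 8.92 to 9.53 (median 9.26) in CAR-KO liver with PB. Its log2 ratio was -0.04 ± 0.15 (95% interval -0.40 to 0.32), which became 0.44 with median centring and 0.00 with scale normalisation. Orm3, which lies between Orm1 and Orm2 on chromosome 4, had a ratio of 0.45 ± 0.18 (limma adjusted p = 0.186). The orosomucoid genes thus had 1 call among 3.

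Hp encodes haptoglobin, which binds free haemoglobin in plasma. It read 13.73 and 14.46 in WT tumour, against 13.60 to 14.20 (median 14.07) in CAR-KO liver with PB, so tumour lay both inside and above the liver range. The 2 arrays disagreed in sign (-0.35 and 0.27), with the dye effect of the probe, -0.66, still in them. The fitted ratio was -0.04 ± 0.29 (95% interval -0.73 to 0.64). It was 0.67 with median centring, 0.06 with scale normalisation and 0.49 without array 2. In the other direction it was -0.57 without array 1 and -0.17 with no background subtraction.

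Fga, Fgb and Fgg encode the 3 chains of fibrinogen, the clotting protein, which hepatocytes assemble as a dimer. Fgg read 13.84 and 13.90 in WT tumour, against 14.58 to 15.30 (median 14.84) in CAR-KO liver with PB. Both tumour readings lay below all of the liver readings. Its log2 ratio of -1.35 ± 0.17 (-1.46 and -1.24; limma adjusted p = 0.00824), or 2.55-fold lower, was the lowest of the 10 genes. It stayed past the threshold without array 2 (-1.42, limma adjusted p = 0.00167), without array 1 (-1.28, limma adjusted p = 0.0108) and with median centring (-0.62, limma adjusted p = 0.0359).

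Fgb read 14.87 and 14.79 in WT tumour, against 15.23 to 15.95 (median 15.43) in CAR-KO liver with PB, with no overlap. Its log2 ratio was -0.90 ± 0.17 (-1.07 and -0.73; limma adjusted p = 0.0326). The CAR-KO reading on array 2 was saturated and so gives a lower bound of its level there. Because of that reading, the array 2 ratio and the fitted ratio, 1.87-fold lower in WT tumour, may understate the fall. Neither ratio sets a smallest fall. The 95% interval of the fitted ratio was -1.29 to -0.51, and median centring, given below, made the fall smaller. Without array 2, on which the saturated reading lies, the ratio was -1.13 (limma adjusted p = 0.0036). Without array 1 it was -0.67 (limma adjusted p = 0.156) and rests on that reading alone, and with median centring of both arrays it was -0.15.

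Fga read 11.44 and 11.46 in WT tumour, against 12.20 to 12.87 (median 12.53) in CAR-KO liver with PB, also with no overlap. Its log2 ratio of -1.08 ± 0.35 (-1.43 and -0.74; limma adjusted p = 0.139) did not pass the test. Its SE, the largest among the 10 genes, is shared over the 6 arrays and holds the spread of the PB pair described below.

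Lcn2 encodes lipocalin 2, which binds bacterial siderophores and so keeps iron from microbes. It is made by hepatocytes in inflammation, by injured epithelia and by neutrophils. Lcn2 read 7.72 and 8.18 in WT tumour, against 6.38 to 6.94 (median 6.90) in CAR-KO liver with PB, and every tumour reading lay above every liver reading. The raw signals of CAR-KO liver were low on the 2 tumour arrays, 165 and 377 over local backgrounds of 58 and 299. The log2 ratio of Lcn2, 1.41 ± 0.15 (1.34 and 1.49; limma adjusted p = 0.00377), or 2.66-fold higher, was the highest of the 10 genes. The size of this ratio changed with background handling, to 0.83 with no subtraction and 1.58 with limma's minimum method. It was also past the threshold without array 2 (1.36, limma adjusted p = 0.00113), without array 1 (1.47, limma adjusted p = 0.00215) and with median centring (1.35, limma adjusted p = 0.00283), and reached 2.03 (limma adjusted p = 0.121) on the processed signals of the scanner software.

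**Figure D3:**
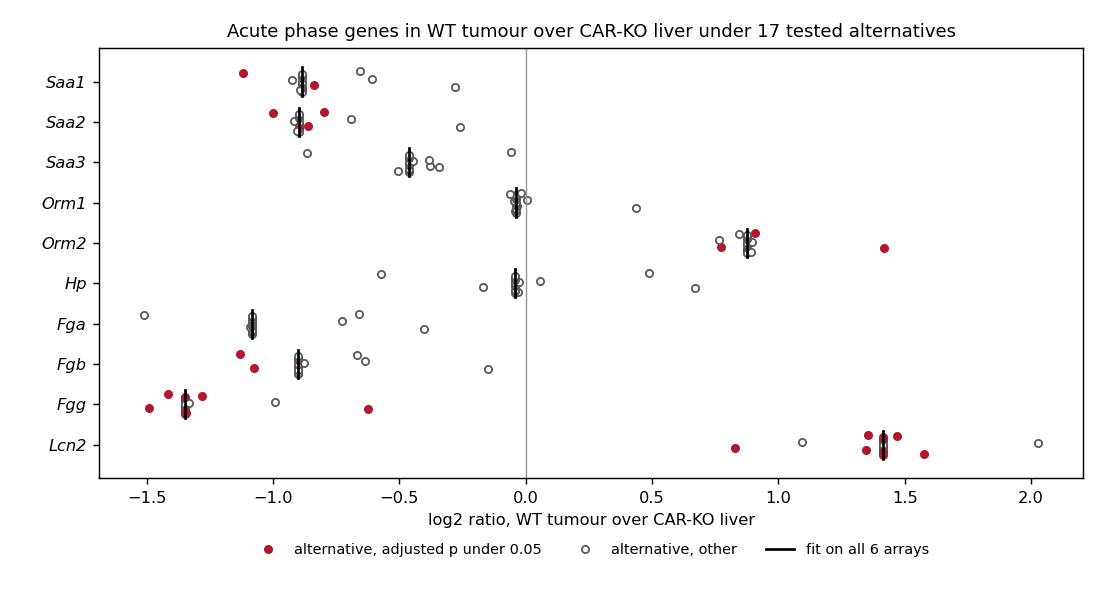
Log2 ratios of WT tumour over CAR-KO liver (horizontal axis) for each acute phase gene in the fit on all 6 arrays (vertical bars) and in 17 alternatives with a test (points, filled where the adjusted p was under 0.05). Points of Lcn2 span 0.83 to 2.03 and those of Fgg -1.49 to -0.62, while points of Hp and Orm1 lie on both sides of 0.

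Markers of cells that could bring these RNAs into a sample were set beside the tumour values. In WT tumour over CAR-KO liver 23.4% of all probes had an unadjusted p under 0.05 (limma), the share to hold beside the marker counts. Of 9 measured neutrophil markers none passed the test in WT tumour over CAR-KO liver (limma, 1 with an unadjusted p under 0.05), and their summed signal was 817 to 845 in WT tumour and 777 to 940 in CAR-KO liver with PB. Camp and S100a9, both granule or cytosolic proteins of neutrophils, had the largest ratios of that list over all comparisons, -0.60 ± 0.24 and -0.42 ± 0.28 in WT tumour over WT liver. Summed macrophage and Kupffer cell markers were 3124 to 3327 in WT tumour and 2577 to 2924 in CAR-KO liver with PB, and none of 6 passed the test (3 with an unadjusted p under 0.05). Of the 6, 4 had a positive ratio and 2 a negative one, with Cd68 at 0.72 ± 0.17 (limma adjusted p = 0.0726) and Cd5l at 0.42 ± 0.16, against Csf1r at -0.31 and Marco at -0.06. Summed adipocyte markers were 1067 to 1139 in WT tumour and 556 to 854 in CAR-KO liver with PB, and none of 4 passed (3 with an unadjusted p under 0.05). Only Fabp4 had a positive ratio, 0.87 ± 0.19 (limma adjusted p = 0.0607), while Adipoq (-0.21), Cfd (-0.39) and Retn (-0.67) were negative, and the list median was -0.30. Retn stood at -0.92 ± 0.38 in WT tumour over WT liver. Adipoq, Cfd, Csf1r and Marco were named after their values were seen. Every marker was well above background in at least 1 channel, but only 5 of the 9 neutrophil and 2 of the 4 adipocyte markers in every channel. Of 12 channel readings, Camp was well above background in 5 and S100a8 in 4. The summed neutrophil signal therefore includes readings near background, and cannot decide how much neutrophil RNA the samples held. Summed hepatocyte markers were 26429 to 27503 in WT tumour, within the 25160 to 32109 of CAR-KO liver with PB. None of 4 passed the test (1 with an unadjusted p under 0.05), with Apoc3 at -0.70 ± 0.16 (limma adjusted p = 0.0664). All 4 nevertheless had a negative ratio, with a list median of -0.24. Ttr, which also marks hepatocytes, had its largest ratio in CAR-KO over WT liver, 0.38 ± 0.16. The part of neutrophil, macrophage and adipocyte RNA in the values of Lcn2 and Saa3 was not tested.

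To place the 10 genes among the rest of the acute phase response, related gene lists were read in the same fit. Of 26 other positive acute phase genes none rose and 3 fell in WT tumour over CAR-KO liver, with a list median of -0.06. Of all probes, 2.53% were called higher and 0.839% lower in that comparison. Hamp, which encodes the iron hormone hepcidin, fell by 1.90 (± 0.17, limma adjusted p = 0.00204). Serpina3m, a serine protease inhibitor gene, fell by 1.19 (± 0.19, limma adjusted p = 0.0183), and Mt1, the metallothionein 1 gene, fell by 0.99 (± 0.17, limma adjusted p = 0.0243), all on the log2 scale.

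Of 14 negative acute phase genes, which fall in the liver during inflammation, 2 rose and 1 fell, with a list median of -0.19. The shares of all probes were again 2.53% higher and 0.839% lower. Apoa4, the apolipoprotein A-IV gene, had a log2 ratio of 2.31 ± 0.24 (limma adjusted p = 0.00349) and Serpina6, the corticosteroid-binding globulin gene, 0.86 ± 0.18 (limma adjusted p = 0.0465). Igf1, which encodes insulin-like growth factor 1, had a ratio of -1.68 ± 0.19 (limma adjusted p = 0.00496).

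Of 15 genes for acute phase cytokines and their receptors 1 fell, Il6, beside 0.839% of all probes called lower. Its ratio was -0.78 ± 0.15 (-0.95 and -0.60; limma adjusted p = 0.0426), and the list median was -0.09. Il6 is the cytokine that drives most hepatocyte acute phase genes. Of 23 genes of acute phase signalling and its transcription factors none passed the test, and the list median was 0.07. Of these, 9 had an unadjusted p under 0.05 (limma), beside 23.4% of all probes. Pias3, which encodes an inhibitor of STAT3, stood at -0.78 ± 0.21 (limma adjusted p = 0.1), and Cebpd, which encodes an acute phase C/EBP factor, at 0.73 ± 0.28 in WT tumour over WT liver. Stat3, Jak1 and Il1b have no probe named by symbol here.

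**Figure D4:**
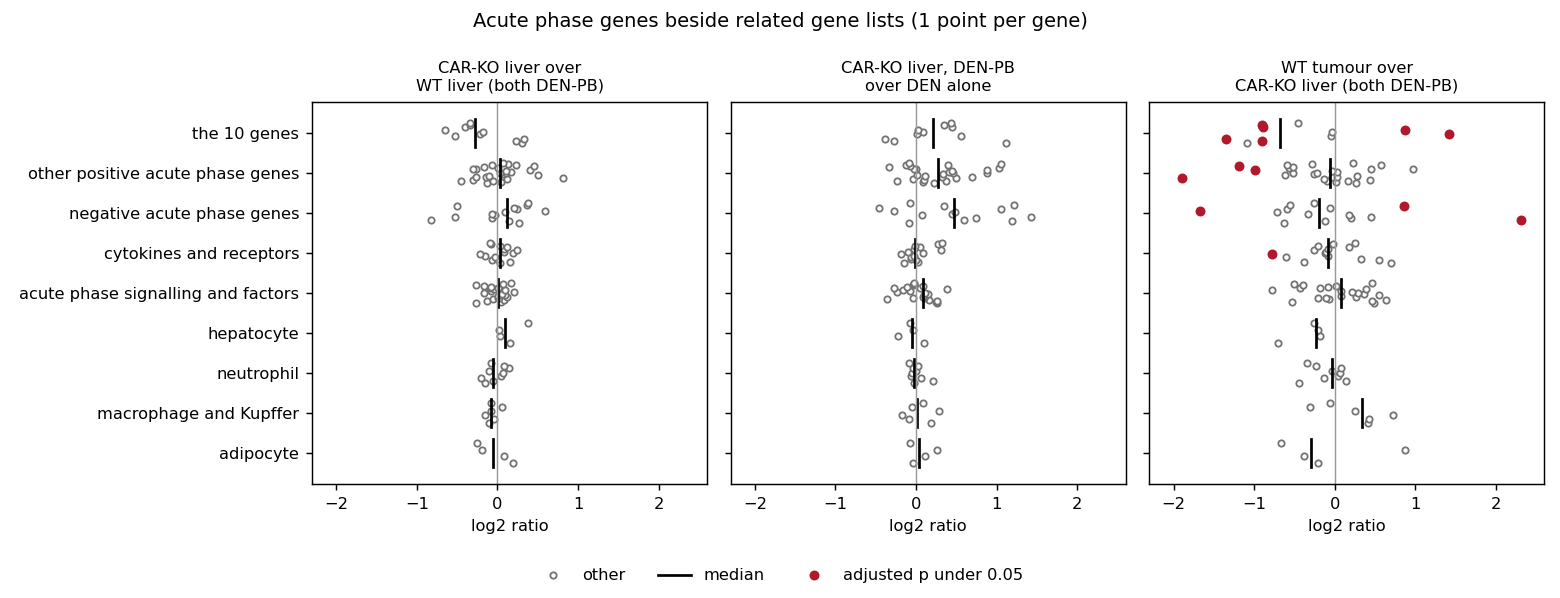
Log2 ratios (horizontal axis, 1 point per gene) of the 10 acute phase genes and of related gene and marker lists in the 3 direct comparisons, with list medians as bars and genes with an adjusted p under 0.05 filled. All filled points are in WT tumour over CAR-KO liver, with Apoa4 (2.31) at the right end and Hamp (-1.90) at the left.

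Whether the same genes differ between CAR-KO and WT liver was asked in the first pair. None of the 10 passed the test in CAR-KO over WT liver (limma, smallest adjusted p = 0.777, 2 with an unadjusted p under 0.05, beside 470 of all probes). Among all 20743 probes, 0.00482% were called higher and 0.0868% lower, and with median centring 18.2% of the called probes were on the higher side, against 5.26% here. The median was -0.28 over the 10 genes and 0.02 over all probes. For all 10 genes both arrays had the same sign, negative for 7 and positive for Fga, Fgb and Fgg, so the fibrinogen genes lay on the other side of 0 from the rest.

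Orm2 was farthest from 0, with readings of 9.19 and 9.34 in CAR-KO liver on this pair, against 10.13 and 9.71 in WT liver. Its log2 ratio was -0.66 ± 0.16 (-0.94 and -0.37; limma adjusted p = 0.777). Hp had a ratio of -0.52 ± 0.29 (-0.98 and -0.06), Saa1 of -0.40 ± 0.17 (-0.77 and -0.04), Saa2 of -0.34 ± 0.15 (-0.38 and -0.30) and Saa3 of -0.34 ± 0.20 (-0.54 and -0.13). In each of these 5 genes array 1 lay farther from 0 than array 2. All 5 had a negative dye effect, from -0.66 for Hp to -0.03 for Saa2. With CAR-KO in Cy5 on array 1, such an effect lowers the array 1 ratio and raises that of array 2. Lcn2 had a ratio of -0.22 ± 0.15 (95% interval -0.57 to 0.13) and Orm1 of -0.17 ± 0.15 (95% interval -0.53 to 0.18).

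The fibrinogen ratios in CAR-KO over WT liver were 0.33 ± 0.17 for Fgg (0.12 and 0.54), 0.30 ± 0.35 for Fga (0.10 and 0.50) and 0.23 ± 0.17 for Fgb (0.27 and 0.20). Their 95% intervals held 0. Fgg read 14.58 and 14.84 in CAR-KO liver on this pair, against 14.45 and 14.30 in WT liver. No gene of the related lists passed the test in this comparison (limma). Of them, 5 of 26 other positive and 5 of 14 negative acute phase genes had an unadjusted p under 0.05, beside 2.27% of all probes.

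The second pair asked what PB does to these genes where CAR is absent. None of the 10 passed the test for PB over DEN alone (limma, all adjusted p = 1, 2 with an unadjusted p under 0.05), and of all 20742 probes 0% were called higher and 0% lower, with 566 at an unadjusted p under 0.05. The median was 0.21 over the 10 genes and -0.01 over all probes. The 2 arrays disagreed in sign for 6 of the 10 genes, and over all probes the array ratios of this pair correlated at -0.347. Both values hold the dye effect, so neither measures disagreement between the arrays alone.

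Fga read 12.39 and 12.83 with PB, against 12.61 and 10.38 with DEN alone. The last of these, in Cy5 on array 2, lay far below the other readings of Fga in any RNA. The array ratios were -0.22 and 2.46, and the fitted ratio was 1.12 ± 0.35 (95% interval 0.29 to 1.95). Hp showed the same shape, with 13.63 and 14.13 with PB against 14.30 and 12.35 with DEN alone, array ratios of -0.66 and 1.77 and a fitted ratio of 0.56 ± 0.29. Fgg had array ratios of the same sign, -0.27 and -0.50 (fitted -0.39 ± 0.17). Fgb had array ratios of -0.19 and -0.35 (fitted -0.27 ± 0.17, 95% interval -0.66 to 0.11), but its PB reading on array 1 was saturated. The first of these ratios and the fitted value may therefore be too low, though neither sets a bound. The sign on array 1 is not settled.

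Saa2 was steadier, with 11.49 and 11.60 with PB against 11.24 and 11.16 with DEN alone, and a ratio of 0.34 ± 0.15 (0.25 and 0.43). Saa1 read 11.02 and 11.20 with PB against 11.11 and 10.22 with DEN alone, a ratio of 0.44 ± 0.17 (-0.09 and 0.98). Saa3 had a ratio of 0.43 ± 0.20 (0.06 and 0.80). Of the rest, Lcn2 stood at 0.01 ± 0.15 (95% interval -0.34 to 0.36), Orm2 at 0.03 ± 0.16 (-0.44 and 0.50) and Orm1 at 0.08 ± 0.15 (-0.12 and 0.28).
No gene of the related lists passed the test for PB over DEN alone (limma). Of them, 7 of 26 other positive and 7 of 14 negative acute phase genes had an unadjusted p under 0.05, beside 2.73% of all probes. Among those 7 negative genes, only Cyp3a11 had the same sign on both arrays (0.73 and 2.11). Trf, for example, had array ratios of -0.38 and 2.81.

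WT tumour and WT liver shared no array, so their difference was taken through the CAR-KO liver with PB, with a larger error. None of the 10 genes passed the test in WT tumour over WT liver (limma, smallest adjusted p among them 0.223, 6 with an unadjusted p under 0.05), and of all 20743 probes 0% were called higher and 0% lower, with 1734 at an unadjusted p under 0.05. The median was -0.72 over the 10 genes and -0.01 over all probes. Saa1 had a log2 ratio of -1.29 ± 0.24, Saa2 of -1.24 ± 0.22 and Fgg of -1.02 ± 0.24 on this scale, and Lcn2 of 1.19 ± 0.21. Orm2, higher in WT tumour over CAR-KO liver, stood at 0.22 ± 0.22 (95% interval -0.30 to 0.74) against WT liver, where it read 10.13 and 9.71. The tests here miss the threshold and do not show that tumour and WT liver were alike.

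Ordering the 4 RNAs by fitted level gave 5 different orders. Saa1, Saa2 and Saa3 ran from WT liver through CAR-KO liver with PB and CAR-KO liver with DEN alone to WT tumour, the lowest. Fgb and Fgg ran from CAR-KO liver with DEN alone through CAR-KO liver with PB and WT liver to WT tumour, again the lowest. For Fgb a saturated reading may make the fitted level with PB too low, so its place below DEN alone is unsettled. Orm2 and Lcn2 ran from WT tumour, the highest, through WT liver and CAR-KO liver with PB to CAR-KO liver with DEN alone. Orm1 and Hp ran from WT liver through CAR-KO liver with PB and WT tumour to CAR-KO liver with DEN alone. Fga ran from CAR-KO liver with PB through WT liver and WT tumour to CAR-KO liver with DEN alone.

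Of the 30 steps between neighbours in these orders, 7 had a 95% interval of the fitted difference without 0. They were CAR-KO liver with PB below WT liver for Saa1 and Orm2, PB above DEN alone in CAR-KO liver for Saa1, WT tumour below CAR-KO liver with DEN alone for Saa2, WT tumour below WT liver for Fgb and Fgg, and WT tumour above WT liver for Lcn2. The intervals of all other neighbours held 0, among them every neighbouring pair of Saa3, Orm1, Hp and Fga. These intervals are not adjusted, and the neighbours were sorted by the same fitted values, so they describe the order and test nothing. Of the 7, the step of Saa2 was not among the comparisons tested above, and the others did not pass the adjusted test there (limma adjusted p from 0.236 for Lcn2 to 1 for both steps of Saa1).

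Likeness between genes was measured as the Euclidean distance over the 3 fitted log2 ratios, among 9727 other genes with a symbol, and is a description of 3 points that share a liver RNA. The nearest genes to Lcn2 were Gpc1 (distance 0.0205), Ccn5 and Cdca3, and those to Orm2 were Aldh1a7 (0.0694), Sar1b and Ywhah. Fgg lay nearest to Hsd3b4 (0.184), Serpina3c and Nudt7, and Fgb to Baat (0.083), Casq2 and Nat1. Saa2 lay nearest to Dlg1 (0.277), Acvr1b and Sfxn4, and Saa1 to Sfxn4 (0.374), Dlg1 and Nfix. No gene outside the 10 was as near to Saa1 or Saa2 as the 2 were to each other.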

How the data were processed

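Total RNA (0.5 µg per labelling, per the labels' protocols) was hybridised to Agilent 2-colour arrays, and the 6 scanner files give a mean signal and a local background median per spot and channel, which are intensity values deposited by the authors without normalisation. The same files hold processed intensity values and a log10 ratio of red over green that the authors' scanner software made, and the deposited value table is that log10 ratio, with a largest difference of 0. Columns of other kinds are deposited spot flags (control type, saturation, outlier, signal well above background). The version of Feature Extraction was 7.1.1 for 5 arrays and 7.5.1 for array 2 of the tumour comparison, per the file headers, and is given as 7.5 in the submitters' processing notes. Each channel's RNA was taken from the dye labels.

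Signals were corrected with normexp (offset 50), normalised by loess within each array with control spots at weight 0, and turned to the direction that the text names. Outlier spots were set to missing and spots of a probe averaged. Limma 3.58.1 (R 4.3.3) fitted all 6 arrays with a coefficient for each of the 3 pairs and 1 for the dye, which left 2 residual degrees of freedom per probe beside 5.46 prior ones. Probes entered the test if either channel was well above background on 2 arrays or more. A call is a p under 0.05 after Benjamini-Hochberg adjustment across every probe that entered. Symbols came from accessions, bracketed symbols and older symbols through a RefSeq gene table (GRCm38.p6). The number of arrays limits the precision. From each related list all measured genes were counted, with the brightest probe standing for a gene, and up to 4 called genes were named by size or, with none called, the 2 with the largest absolute ratio in any comparison. The 3 nearest genes of each called gene were named by distance. The genes, lists and tests were chosen with earlier results of these data known. In all, 18 alternatives were tried, of which 1, the mean of the 2 arrays of a pair, has no test.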

Additional observations from a re-analysis of the deposited data

How the results depend on the processing

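In WT tumour over CAR-KO liver, 6 of the 10 acute phase genes passed the test. That count was 2 with background subtraction by limma's minimum method, 0 on the processed signals of the Agilent software, 3 with median centring in place of loess, 0 with scale normalisation between arrays, 2 with array weights, 0 with only the 2 arrays of the pair, and 2 to 5 with 1 array left out (4 without array 1 of the tumour pair, 5 without array 2, and 2 without any 1 array of the CAR-KO over WT or the PB pair). In WT tumour over WT liver the count of 0 ran from 0 to 5 with 1 array left out, being 3 without array 1 and 5 without array 2 of the tumour pair. In the other 2 comparisons it was 0 under every alternative run. With 1 array left out, the other arrays set the spread of the lone one.

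Among uncalled ratios the sign changed as follows. With median centring, PB over DEN alone was 0.0488 for Fgb and -0.0026 for Lcn2, WT tumour over CAR-KO liver was 0.44 for Orm1 and 0.67 for Hp, and WT tumour over WT liver was 0.34 for Orm1, 0.33 for Hp, 0.0405 for Fga and 0.28 for Fgb. With scale normalisation, Orm2 was -0.0894 in PB over DEN alone, and Orm1 was 0.0037 and Hp 0.0561 in WT tumour over CAR-KO liver. With 1 array left out, Fga ran from -0.34 to 0.94 in CAR-KO over WT liver. In PB over DEN alone Lcn2 ran from -0.0205 to 0.0414, Orm1 from -0.0204 to 0.18, Orm2 from -0.12 to 0.18 and Hp from -0.28 to 1.39; the tumour over CAR-KO liver ratio of Hp ran from -0.57 to 0.49. The cause was not tested.

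Over all probes, WT tumour over CAR-KO liver had 524 higher and 174 lower calls, against 2375 and 1781 with median centring, 194 and 42 with array weights, 331 and 97 with the minimum method, 0 and 0 on processed signals or with scale normalisation, 53 and 9 with only the pair's arrays, and 1778 and 2892 without array 2 of the pair. CAR-KO over WT liver had 1 and 18, against 0 and 0 on processed signals, 0 and 5 without array 1 of its pair, 0 and 4 without array 2, 0 and 7 with either array of the PB pair left out, 15 and 63 with array weights, 18 and 69 with only its own arrays, and 18 and 75 with array 1 or array 2 of the tumour pair left out. The averaged pair gave the same ratios with no test. Both RNAs of a pair share each array, so the ratios are already paired within arrays. No further pairing could be added, because the labels carry no replicate numbers.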

Other observations

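Crp and Apcs encode the pentraxins C-reactive protein and serum amyloid P, of which serum amyloid P is the main acute phase pentraxin of the mouse. These 2 genes were singled out after their values were seen. The log2 ratio of Crp in tumour over CAR-KO liver was 0.43 ± 0.18 (SE; 0.49 and 0.37 on the 2 arrays; limma adjusted p = 0.204) and that of Apcs 0.26 ± 0.16 (0.23 and 0.29; limma adjusted p = 0.373). Both arrays were positive for each, but neither gene passed the test.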
